A study of Homo sapiens with 12 samples.

Results

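Type I interferon-stimulated genes, a set of 44 human genes taken by symbol, were followed through every probe that the platform annotation assigns to them. Of the 44, 43 had at least 1 probe, and together they had 64 of the 47322 probes. After probes with a detection p under 0.05 on fewer than 3 of the 12 arrays were left out, 58 probes of 40 genes remained to be tested. MX2, USP18 and CMPK2 each had 1 probe that was left out, and TDRD7 was not analysed here. The cells were MDA-MB-231, a human breast cancer line whose tumour suppressor p53 is mutant. Every culture was transfected with an siRNA, either a control or one against p53, and was moved 48 h later to low-serum medium with no addition or with tumour necrosis factor (TNF) at 10 ng/ml for 20 h. The design therefore held 4 groups of 3 arrays, namely control siRNA untreated, control siRNA with TNF, p53 siRNA untreated and p53 siRNA with TNF. The labels call the arrays biological replicates without saying what separates them, so the p-values below cover only the spread of these arrays, all of 1 cell line. Effects of an siRNA that do not pass through its target were not separated, and no slide or batch is given, so batch and group cannot be told apart.

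Interferons of type I bind a receptor made of IFNAR1 and IFNAR2, whose kinases JAK1 and TYK2 activate a transcription factor complex that contains IRF9. That complex binds the interferon-stimulated response element in gene promoters. The genes it controls encode sensors of foreign RNA, inhibitors of viral entry and translation, nucleases and the ubiquitin-like protein ISG15. Many tumour lines keep some of these genes active without added interferon. TNF signals mainly through NF-kB, and it can also start an interferon response through IRF1 and interferon beta in some cell types.

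Promoters are shown for the members with the largest changes that the RefSeq promoter table holds, because the response element is the sequence feature known to tie these genes together. Each covers 250 bases before and 50 bases after an annotated start on GRCh38.p14, written 5′ to 3′ on the strand of the gene, and capitals mark the core motif, which is GAAA, any 2 bases and GAAA again, or its complement, which is TTTC, any 2 bases and TTTC. The IFIT1 promoter is at chr10:89392373-89392672 on the plus strand, and the IFIT3 promoters are at chr10:89327747-89328046 and chr10:89332279-89332578 on the same strand. The DDX60 promoter is at chr4:168318703-168319002 on the minus strand.
IFIT1: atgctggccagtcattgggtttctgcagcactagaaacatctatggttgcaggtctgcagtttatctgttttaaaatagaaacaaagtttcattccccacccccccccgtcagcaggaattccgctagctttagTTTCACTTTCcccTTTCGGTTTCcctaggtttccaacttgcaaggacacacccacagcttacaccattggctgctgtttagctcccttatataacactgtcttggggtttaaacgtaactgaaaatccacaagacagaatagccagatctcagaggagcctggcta
IFIT3, upstream start: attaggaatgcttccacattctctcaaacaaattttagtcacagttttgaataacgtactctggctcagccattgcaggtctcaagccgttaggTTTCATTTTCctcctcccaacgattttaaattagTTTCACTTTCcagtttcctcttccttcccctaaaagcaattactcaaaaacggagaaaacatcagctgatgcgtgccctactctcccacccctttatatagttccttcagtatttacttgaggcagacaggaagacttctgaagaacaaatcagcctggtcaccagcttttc
IFIT3, downstream start: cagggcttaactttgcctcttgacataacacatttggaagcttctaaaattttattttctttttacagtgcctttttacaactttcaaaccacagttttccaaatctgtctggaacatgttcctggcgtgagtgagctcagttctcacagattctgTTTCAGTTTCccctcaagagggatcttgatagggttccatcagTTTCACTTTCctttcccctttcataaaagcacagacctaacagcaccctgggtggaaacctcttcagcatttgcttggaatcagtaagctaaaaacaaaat
DDX60: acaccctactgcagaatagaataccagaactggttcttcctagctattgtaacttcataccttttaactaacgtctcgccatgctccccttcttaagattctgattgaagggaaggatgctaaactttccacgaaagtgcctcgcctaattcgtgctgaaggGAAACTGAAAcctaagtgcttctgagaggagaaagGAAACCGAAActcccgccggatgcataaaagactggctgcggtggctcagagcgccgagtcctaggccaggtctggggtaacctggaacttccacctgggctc
Each of these promoters held the motif at 2 places. OASL and IFIT2, the other members with changes of that size, are named only. The motif was searched on both strands, and matches were allowed to overlap. It was found in 32 of the 49 promoters of the members, or 65.3%, against 3.57% of all 35116 promoters in the table. By gene, 27 of the 36 members with a promoter in the table held it (75.0%), against 4.38% of all 27305 genes. This share describes the set and was not tested.

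Shorter stretches of 20 bases, again with the motif in capitals but turned to the strand that reads GAAA, are given for members that are described below. The first 3 were lower in p53 siRNA cells, the next 3 were not, and the last pair comes from neighbouring genes that face away from each other. The GRCh38.p14 promoters are at chr12:112938224-112938523 for OAS3 (plus strand), chr21:41420308-41420607 for MX1 (plus strand), chr11:313790-314089 for IFITM1 (plus strand), chr19:17405581-17405880 for BST2 (minus strand), chr7:140062902-140063201 for PARP12 (minus strand), chr17:78979874-78980173 for LGALS3BP (minus strand), chr3:122564251-122564550 for PARP9 (minus strand) and chr3:122564088-122564387 for DTX3L (plus strand).
OAS3: gaaacGAAACTGAAAgcagg
MX1: gaaatGAAACCGAAActgaa
IFITM1: tctgaGAAACTGAAAcgaca
BST2: tctggGAAACTGAAActgaa
PARP12: gaaacGAAACCGAAAgcggc
LGALS3BP: ttctgGAAATCGAAAgtaga
PARP9: gaagcGAAACTGAAActttg
DTX3L: gaagcGAAACTGAAActttg
PARP9 and DTX3L share 1 stretch, which lies within both promoter windows. Its motif covers -41 to -32 from the PARP9 start and -6 to 4 from the DTX3L start. Each stretch was picked because it holds the core, and OAS3, IFITM1 and BST2 hold another match that is not printed. These stretches therefore cannot show whether the core separates members that were lower from members that were not. A match is a description of letters and not a binding site.

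The arrays were alike in brightness, with median intensities from 226 to 266 and 19810 to 21157 probes detected. Across the 12507 genes with a tested probe, arrays of a group correlated at 0.992 or more in 3 groups, while in untreated p53 siRNA cells replicate 3 correlated with the other two at 0.974 and 0.977. On that array 31 of the 40 tested members lay below the mean of the other two, with a median of -0.27 on the log2 scale, and on replicate 1 of the same group 6 did, with a median of 0.37. The members' medians and the counts of members called lower that rest on this group are therefore also given without replicate 3. All 6 markers of MDA-MB-231 (VIM, CD44, LGALS1, KRT18, AXL and CAV1) were detected on all 12 arrays. Their summed intensity ranged from 174519 to 178425 in untreated control and from 120988 to 141612 in untreated p53 siRNA cells, and with TNF from 164384 to 197169 and from 115054 to 137931. Of the 5 luminal markers, ESR1, PGR and CDH1 were detected on 0 arrays, GATA3 on 10 and EPCAM on 12. Their sums ran from 2229 to 2799 and from 2265 to 2870 untreated, and from 2323 to 2600 and from 1823 to 1980 with TNF, where EPCAM was at -0.39 with p53 siRNA (limma adjusted p = 0.0451). Of 6 leukocyte markers with a probe, PTPRC and CD3E were detected on 0 arrays, LST1 on 1, ITGAM on 4, and the monocyte markers CD14 and CD68 on 12. These sums ran from 7204 to 8198 and from 6566 to 11820 untreated, and from 8346 to 10821 and from 7140 to 9079 with TNF, and the representative probes of CD14, CD68 and ITGAM were not called between the siRNAs. Of 6 fibroblast and endothelial markers, CDH5 was detected on 0 arrays, COL3A1 on 4, DCN on 6, LUM on 11, and PDGFRB and PECAM1 on 12. With p53 siRNA in untreated cells LUM was at 1.74, PECAM1 at 0.97, COL3A1 at 0.65 and PDGFRB at -1.19, all called. With TNF these were at 1.45, 0.38 (not called), 0.96 and -1.64. The list's sums ran from 1889 to 1986 and from 2024 to 2737 untreated, and from 2573 to 3100 and from 2512 to 3133 with TNF. The part of these markers in the results was not tested.

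Most of the tested interferon-stimulated genes were less abundant after p53 siRNA than after control siRNA, both with and without TNF. A gene was represented by its tested probe with the highest mean over all arrays, and it was called at a limma adjusted p under 0.05. Of the 40 tested members, 28 were called lower in untreated p53 siRNA cells, where 16.4% of all genes were called lower. Only LGALS3BP was called higher among the tested members there, against 16.1% of all genes. With TNF, 31 of the 40 were called lower, against 14.7% of all genes, and 0 higher, against 12.6%. At an unadjusted p under 0.05, limma likewise gave 0 of the 40 higher with TNF. A probe enters the test on its detection in any group, and 34 of the 40 representative probes were detected on all 12 arrays. Over those 34 members, 26 were lower in untreated cells and 28 with TNF, where 20% and 18.2% of all genes detected that widely were lower. With no filter on detection, 28 and 30 of the 43 members with a probe were lower, against 9.54% and 8.43% of all genes.

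The median log2 change of the tested members was -0.84 in untreated cells and -0.96 with TNF, while the median over all genes was 0.01 in both. With probes undetected in a whole group set to their bound, the members' medians were -0.79 and -0.91. By fitted change, 16 called members were at least 2-fold lower in untreated cells and 20 with TNF, against 5% and 4.33% of all genes. Of the 20, TRIM22 has only a bound under 2-fold, so 19 were lower by at least that much. The untreated and TNF-treated arrays are separate, and 27 members were lower in both, which is 96.4% of those lower in untreated cells and 87.1% of those lower with TNF. For all genes the shares were 66.3% and 73.9%. IFIT5 was called lower in untreated cells but not with TNF, and OAS2, XAF1, PARP9 and TRIM22 the other way round. For none of these 5 was the TNF response difference called (limma adjusted p from 0.4 to 0.887), so the treatments are not shown to differ. Among 23 other settings, 7 called IFIT5 with TNF and 7 called OAS2 untreated, and other XAF1 and PARP9 probes were not called with TNF (limma adjusted p = 0.23 and 0.424). The 8 members called lower in neither were OAS1, BST2, RSAD2, IFI44L, PARP12, DTX3L, LGALS3BP and LAMP3, and other probes of some of them were called, as described below. Without p53 siRNA untreated replicate 3, 27 members were lower in untreated cells (18.3% of all genes) and 32 with TNF (19.1%), and the medians were -0.74 and -0.96. PARP14 lost its untreated call there, at -0.36 (limma adjusted p = 0.0711). In a bulk culture, fewer cells that express a gene and less of its RNA per cell cannot be told apart.

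**Figure D1:**
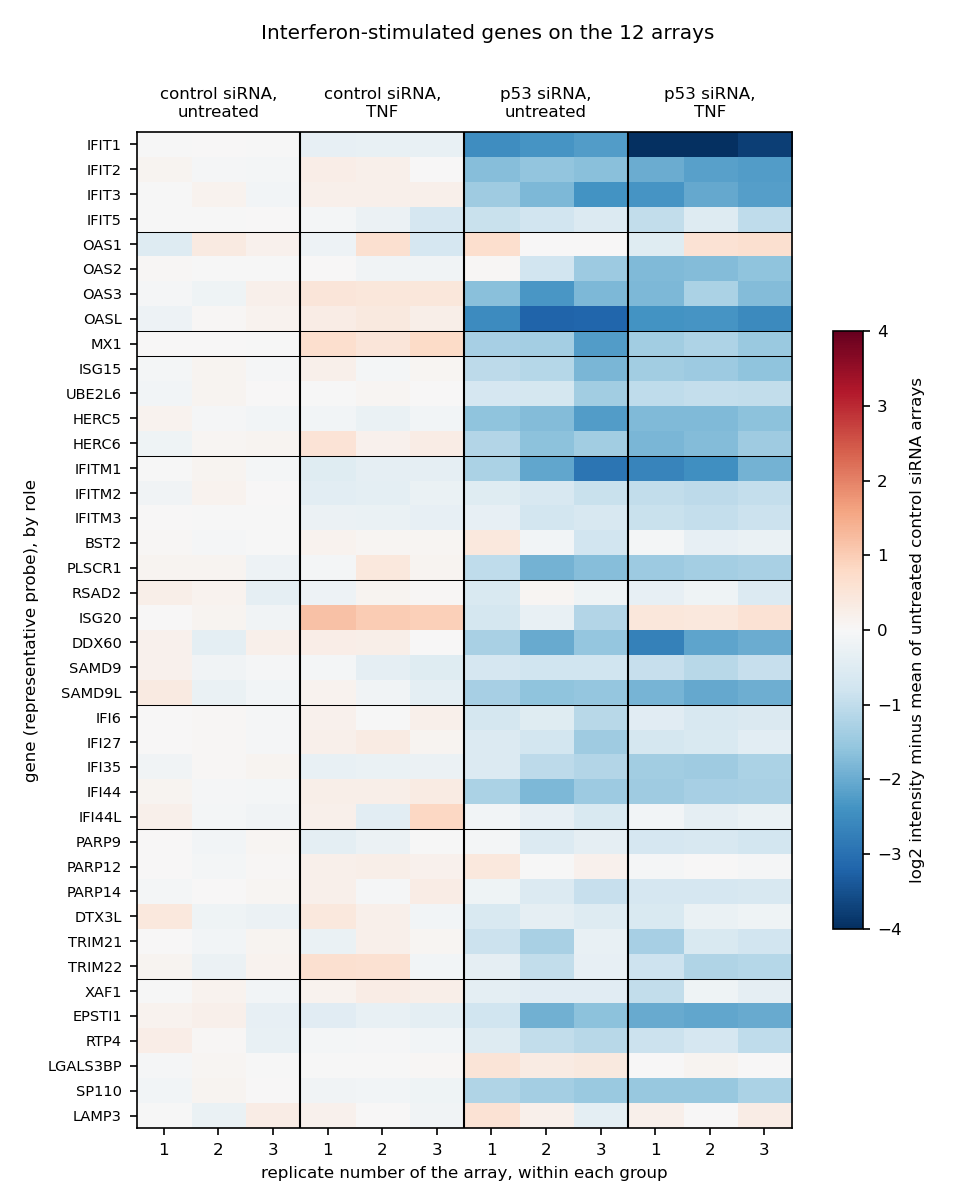
Heat map of the 40 tested members (rows, by role) on the 12 arrays (columns, by group and replicate number). Colour is the normalised log2 intensity minus the mean of the 3 untreated control siRNA arrays, from blue (lower) to red (higher). Most rows are blue on the 6 p53 siRNA arrays, IFIT1 is darkest on the 3 given TNF, and ISG20 is red on the control siRNA arrays given TNF.

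The IFIT proteins bind foreign RNA or translation factors and restrain translation of viral RNA. IFIT1 had the largest change of any member. Its brighter probe, ILMN_1707695, read 11.45, 11.51 and 11.47 on the normalised log2 scale in untreated control siRNA cells and 11.14, 11.17 and 11.17 with TNF. In p53 siRNA cells it read 8.99, 9.10 and 9.26 untreated and 7.48, 7.48 and 7.71 with TNF. The 6 p53 siRNA arrays were all below the 6 control siRNA arrays, and the p53 siRNA arrays with TNF lay below the untreated ones with no overlap. The change with p53 siRNA was -2.36 ± 0.12 in untreated cells (SE, 3 arrays against 3, limma adjusted p = 5.3e-07) and -3.60 ± 0.12 with TNF (limma adjusted p = 6.45e-09). These are 5.14-fold and 12.1-fold lower intensities after background correction and normalisation. Before both steps the mean intensities untreated were 3132 in control and 736 in p53 siRNA cells. With TNF they were 2728 and 367.

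The other IFIT1 probe, ILMN_1699331, gave a different picture. It was detected on 1 of the 3 untreated control siRNA arrays, on 2 of those given TNF and on 0 of the 6 p53 siRNA arrays. Its values were 6.33, 6.86 and 6.40 in untreated control and 6.65, 6.79 and 6.37 in TNF-treated control siRNA cells. In p53 siRNA cells they were 6.32, 6.01 and 6.23 untreated and 6.37, 6.14 and 6.0 with TNF. The groups overlapped, and p53 siRNA cells were not called different from control untreated or with TNF (limma adjusted p = 0.166 and 0.0925). On most arrays this probe was not above background. Which transcripts each probe reads was not tested.

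IFIT3, which stabilises complexes of IFIT1, was measured by 3 probes, all called under both treatments. The representative probe read 10.70, 10.87 and 10.62 in untreated control siRNA cells and 9.31, 8.95 and 8.35 in untreated p53 siRNA cells. With TNF it read 10.93, 10.92 and 10.95 in control and 8.37, 8.70 and 8.52 in p53 siRNA cells. The siRNA groups did not overlap under either treatment, and the changes were -1.86 ± 0.20 and -2.40 ± 0.20 (limma adjusted p = 4.65e-05 and 1.14e-05). The other IFIT3 probes gave -1.78 and -1.92 in untreated cells. With TNF the first gave -2.12, and the second, undetected on the p53 siRNA arrays, was at least 4.92-fold lower.

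IFIT2, a family member that promotes cell death in some settings, followed the same order. It read 11.54, 11.38 and 11.35 in untreated control and 9.72, 9.84 and 9.75 in untreated p53 siRNA cells. With TNF it read 11.70, 11.63 and 11.45 in control and 9.45, 9.26 and 9.19 in p53 siRNA cells. No p53 siRNA array reached any control siRNA array, and the changes were -1.66 ± 0.12 and -2.29 ± 0.12 (limma adjusted p = 4.33e-06 and 7.16e-07). IFIT5, which binds RNA on its own, was at -0.73 ± 0.18 in untreated cells (limma adjusted p = 0.00904) and at -0.51 ± 0.18 with TNF, which was not called (0.0585).

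**Figure D2:**
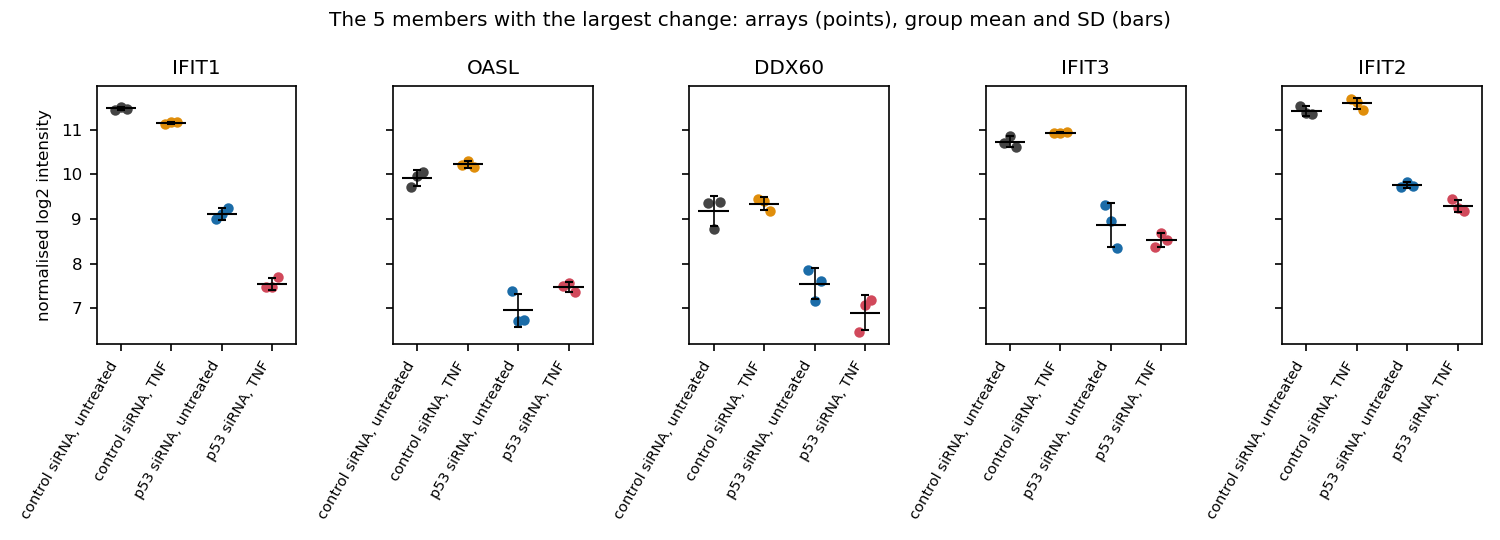
Normalised log2 intensity (y axis) of the representative probe of the 5 members with the largest change, in the 4 groups (x axis). Points are single arrays, and bars give the group mean and SD (n = 3). In each panel the p53 siRNA arrays lie below the control siRNA arrays, and for IFIT1 those given TNF lie below the untreated ones.

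The OAS proteins make short oligoadenylates that switch on RNase L, which cleaves RNA, while OASL lacks that activity and binds the RNA sensor RIG-I. OASL read 9.72, 9.97 and 10.06 in untreated control and 7.39, 6.72 and 6.74 in untreated p53 siRNA cells. With TNF it read 10.22, 10.30 and 10.16 in control and 7.51, 7.57 and 7.36 in p53 siRNA cells. The siRNA groups were far apart under both treatments, and the changes were -2.96 ± 0.17 and -2.75 ± 0.17 (limma adjusted p = 1.08e-06 and 2.51e-06). A dimmer OASL probe was undetected on all p53 siRNA arrays and was at least 2.24-fold lower untreated and at least 2.81-fold lower with TNF (limma adjusted p = 4.57e-05 and 2.43e-05). OAS3 was at -1.93 ± 0.19 and -2.06 ± 0.19 (limma adjusted p = 2.74e-05 and 2.15e-05). OAS1 and OAS2 depended on the probe and are described with the other such genes.

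MX1, a GTPase that blocks influenza and other viruses, was at -1.64 ± 0.21 in untreated cells and -2.02 ± 0.21 with TNF (limma adjusted p = 0.000145 and 4.44e-05). The ISG15 system attaches a ubiquitin-like protein to targets, and all 4 of its tested members were lower under both treatments. ISG15 itself was at -1.33 ± 0.18 and -1.56 ± 0.18. The conjugating enzyme UBE2L6 was at -0.92 and -1.02, with another probe at -1.03 and -1.13. The ligase HERC5 was at -1.86 ± 0.16 and -1.57 ± 0.16, and its relative HERC6 at -1.41 ± 0.16 and -2.01 ± 0.16, with limma adjusted p from 1.01e-05 to 7.93e-05 over these values. The deconjugating enzyme USP18 had no tested probe.

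Among membrane proteins that act against viruses, 4 of 5 were lower under both treatments. IFITM1, which blocks fusion of viruses with the cell, was at -2.09 ± 0.32 and -1.93 ± 0.32 (limma adjusted p = 0.000542 and 0.00115). Its relatives IFITM2 and IFITM3 were at -0.67 and -0.57 untreated and at -0.63 each with TNF. Probes of these 3 genes may take up each other's transcripts, so which of them changed is uncertain. The scramblase PLSCR1 was at -1.54 ± 0.21 and -1.52 ± 0.21 (limma adjusted p = 0.000234 and 0.000318). BST2, also called tetherin, which holds budding viruses at the surface, was at -0.15 ± 0.22 and -0.31 ± 0.22 and was not called (limma adjusted p = 0.664 and 0.36).

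DDX60, a helicase linked to RNA sensing, read 9.36, 8.79 and 9.38 in untreated control and 7.87, 7.17 and 7.62 in untreated p53 siRNA cells. With TNF it read 9.45, 9.41 and 9.18 in control and 6.46, 7.07 and 7.18 in p53 siRNA cells, where 1 array did not detect it. The siRNA groups did not overlap, and the changes were -1.62 ± 0.23 and -2.45 ± 0.23 (limma adjusted p = 0.000337 and 2.63e-05). SAMD9L, a growth-restraining antiviral factor, was at -1.49 ± 0.18 untreated and, undetected on the p53 siRNA arrays given TNF, at least 2.78-fold lower there (limma adjusted p = 3.12e-05). Its relative SAMD9 was at -0.76 and -0.70. The exonuclease ISG20 was at -0.73 ± 0.19 untreated and -0.56 ± 0.19 with TNF (limma adjusted p = 0.0123 and 0.049). The second of these calls was lost in 11 of the 23 other settings that tested it, with adjusted p up to 0.14. The first was lost in 1, with only the groups compared (limma adjusted p = 0.0617). RSAD2, which encodes the antiviral enzyme viperin, was detected on 5 of 12 arrays and was not called.

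Of the 5 IFI genes, which encode proteins named for their induction by interferon, 4 were lower under both treatments. IFI44 was at -1.51 ± 0.14 and -1.62 ± 0.14 (limma adjusted p = 2.15e-05 and 1.48e-05). IFI35, IFI27 and IFI6 lay between -0.92 and -0.77 untreated and between -1.09 and -0.67 with TNF. In the group of poly-ADP-ribose polymerases and ubiquitin ligases, 2 of 6 were lower untreated and 4 of 6 with TNF. PARP14 was at -0.54 and -0.81, and TRIM21, an intracellular antibody receptor, at -0.82 and -0.91. The untreated calls of PARP14 and TRIM21 were lost in 6 and 4 of 23 other settings (limma adjusted p up to 0.101 and 0.0913), and the TNF calls of TRIM21 and PARP9 in 3 and 6 (up to 0.0768 and 0.143). TRIM22, a ligase with antiviral action, was undetected on the p53 siRNA arrays given TNF and was at least 1.88-fold lower there (limma adjusted p = 0.000782). DTX3L, the partner of PARP9, was detected on 3 of 12 arrays and was not called, and PARP12 was at 0.18 and -0.22.

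The 6 remaining tested members held 3 that were lower untreated and 4 with TNF. EPSTI1, named for its induction in breast cancer cells by fibroblasts, was at -1.45 ± 0.24 and -1.66 ± 0.24 (limma adjusted p = 0.000868 and 0.000435). SP110, a nuclear body protein, was at -1.36 ± 0.12 and -1.30 ± 0.12 by its brightest probe. RTP4, a chaperone of receptors, was undetected on all p53 siRNA arrays and was at least 1.22-fold and at least 1.13-fold lower. LGALS3BP, a secreted glycoprotein, went the other way in untreated cells. It read 12.35, 12.48 and 12.38 in control and 12.91, 12.74 and 12.79 in p53 siRNA cells, groups that did not overlap, and was at 0.41 ± 0.11 (limma adjusted p = 0.0126). With TNF its change was 0.05 ± 0.11. The untreated call was lost under median scaling and with only the groups compared, with changes down to 0.18 and limma adjusted p up to 0.419 over the settings.

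**Figure D3:**
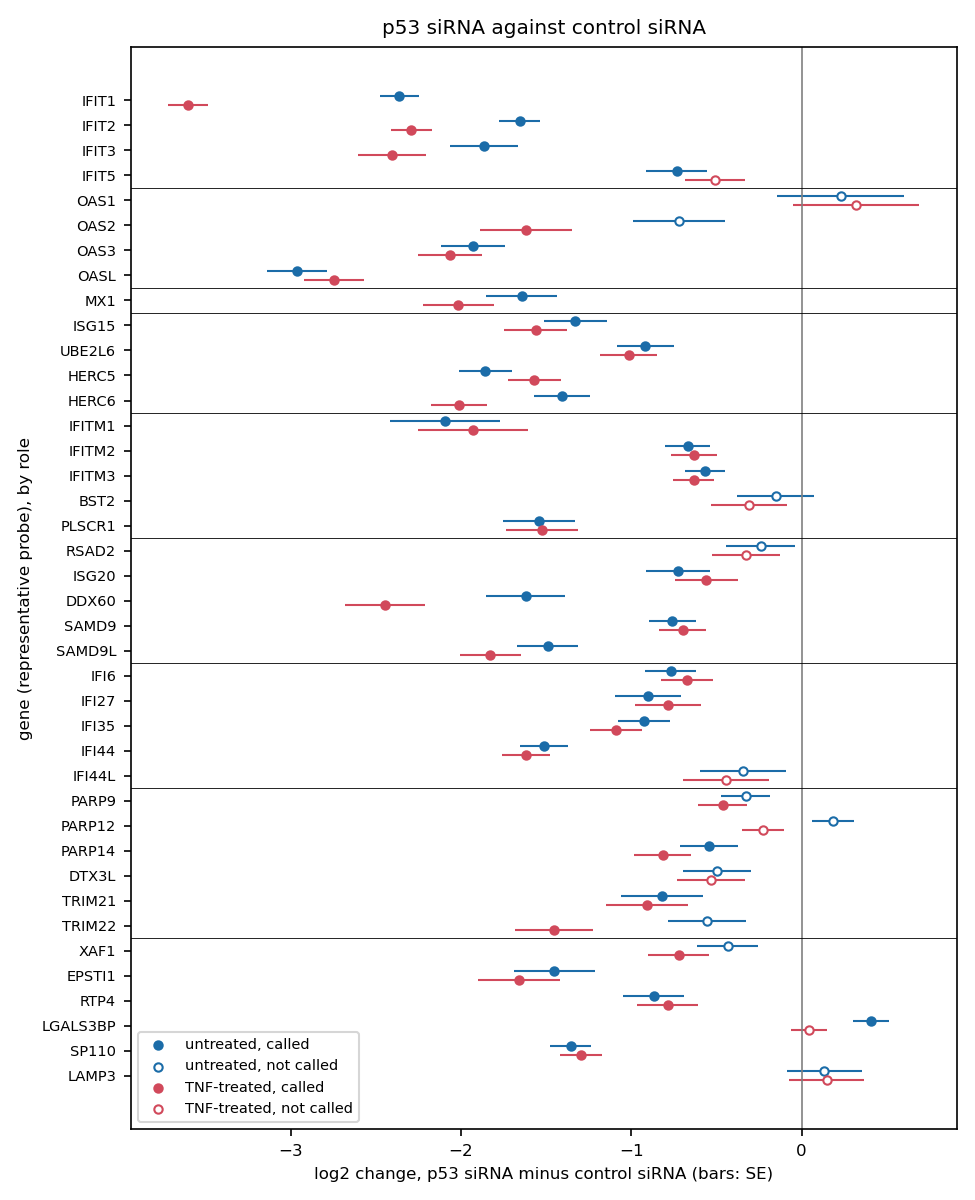
Log2 change with p53 siRNA against control siRNA (x axis, bars give the SE) for the representative probe of each of the 40 tested members (y axis, by role), in untreated cells (blue) and TNF-treated cells (red). Filled points were called at a limma adjusted p under 0.05. All filled points lie left of 0 but that of LGALS3BP in untreated cells.

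The changes of members with and without the promoter motif overlapped. The 27 tested members with the motif had a median change of -0.82 in untreated cells and -0.79 with TNF, and 20 of them were lower under each treatment. The 7 tested members with a promoter in the table and no motif had medians of -0.92 and -1.09, and 5 and 6 of them were lower. These values are a description of few genes and were not tested.

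For 12 members more than 1 probe was tested, 30 probes in all, and the probes of 7 of these genes disagreed by over 0.5 on the log2 scale, or by sign beside a called probe, in at least 1 siRNA comparison. IFIT1, described above, had the widest gap. OAS1 was at 0.23 and 0.32 by its representative probe, at -0.29 and -0.64 by another, neither called, and by the remaining tested probe at -0.90 ± 0.21 untreated and, undetected on the p53 siRNA arrays given TNF, at least 1.37-fold lower there (limma adjusted p = 0.00766 and 0.00848). OAS1 therefore had no agreed direction, and which of its isoforms each probe reads was not tested.

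For OAS2 the 4 probes shared a direction and differed in size. The representative probe was at -0.72 ± 0.27 in untreated cells, which was not called (limma adjusted p = 0.0663), and at -1.62 ± 0.27 with TNF. The other OAS2 probes were at -1.99, -1.69 and -0.19 untreated, with -0.19 not called. With TNF the first was at -2.70, and the others, undetected on the p53 siRNA arrays, were at least 3.66-fold and at least 1.44-fold lower, all called. SP110 was at -0.76, -0.93 and 0.17 by its other probes untreated and at -0.94, -0.56 and -0.15 with TNF, with the last of each not called. IFI44L was not called by its representative probe (-0.34 and -0.44), but another probe was at least 1.33-fold lower untreated and at least 2.22-fold lower with TNF (limma adjusted p = 0.0224 and 0.000496). Only 2 of the 3 untreated control siRNA arrays detected that other probe. LAMP3, a lysosomal membrane protein, was at 0.13 and 0.15, and its other probe, undetected on all p53 siRNA arrays, was not called untreated and was at least 1.20-fold lower with TNF (limma adjusted p = 0.00557). Over all 58 tested probes 38 were lower and 1 was higher untreated, against 13.8% and 14% of all probes, and 44 were lower with TNF, against 12.4%.

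**Figure D4:**
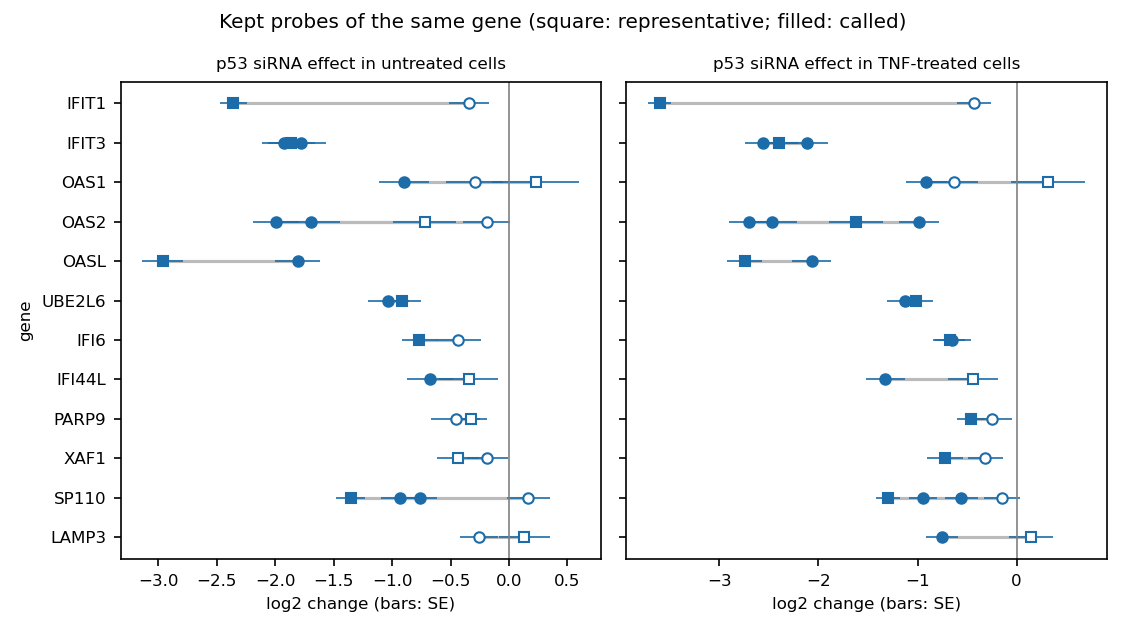
Log2 change with p53 siRNA (x axis, bars give the SE) for each tested probe of the 12 members with more than 1 tested probe (y axis), in untreated cells (left) and with TNF (right). Squares are representative probes and filled symbols were called at a limma adjusted p under 0.05. The IFIT1 probes lie farthest apart, while those of UBE2L6 lie close together. Probes undetected in a whole group are drawn at their fitted change.

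With TNF and all arrays, the share of members called by representative probe lay near that of all genes in both siRNA groups. In p53 siRNA cells, however, 5 of 58 member probes were called lower, a share above that of all probes. OAS1 gave more than 1 of these probes, and 1 of its probes among them was also called lower with TNF in control siRNA cells. In control siRNA cells ISG20 was the only 1 of the 40 tested members called higher, against 4.06% of all genes, and 0 were called lower, against 3.77%. At an unadjusted p under 0.05, limma gave 3 higher and 3 lower. ISG20 read 10.68, 10.79 and 10.54 untreated and 11.84, 11.68 and 11.61 with TNF, groups that did not overlap, and rose by 1.04 ± 0.19 (limma adjusted p = 0.00558). MX1 was at 0.65 ± 0.21 and was not called (limma adjusted p = 0.101), although 6 other settings called it. By probe, 2 of the 58 tested were higher in control siRNA cells, against 3.31% of all probes, and 1 was lower, against 2.92%. Besides that of ISG20 these were an IFI44L probe at 0.78 ± 0.20 (limma adjusted p = 0.035) and an OAS1 probe at -0.96 ± 0.21 (0.0179).

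In p53 siRNA cells TNF again raised ISG20, by 1.21 ± 0.19 (limma adjusted p = 0.00248), as 1 of the 40 called higher against 3.13% of all genes. IFIT1 fell by 1.56 ± 0.12 (limma adjusted p = 6.7e-06) and IFIT2 fell by 0.47 ± 0.12 (0.046), so 2 members were lower against 2.92% of all genes. OAS2 was at -0.98 ± 0.27 by its representative probe and was not called (limma adjusted p = 0.0615), although other settings called it. Limma gave 2 of the 40 higher and 12 lower at an unadjusted p under 0.05. By probe, 1 of 58 was higher, against 2.57% of all probes, and 5 were lower, against 2.37%. The others were an OAS1 probe at -0.99 ± 0.24 (limma adjusted p = 0.0367), another at least 1.43-fold lower (0.02) and an OAS2 probe at least 1.29-fold lower (0.046). That OAS2 probe was detected on only 2 of the 3 untreated p53 siRNA arrays. The IFIT2 call was lost in 16 of the 23 other settings that tested it, with adjusted p up to 0.205. Without p53 siRNA untreated replicate 3, 7 members were lower with TNF, against 5.09% of all genes. The 5 added were OAS2 at -1.34, IFIT3 at -0.60, IFI35 at -0.55, IFITM2 at -0.44 and LGALS3BP at -0.38. The median change with TNF over the tested members was 0.05 in control siRNA cells and -0.10 in p53 siRNA cells, and -0.01 over all genes in both. Without p53 siRNA untreated replicate 3, the median in p53 siRNA cells was -0.24 over the tested members and -0.02 over all genes.

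**Figure D5:**
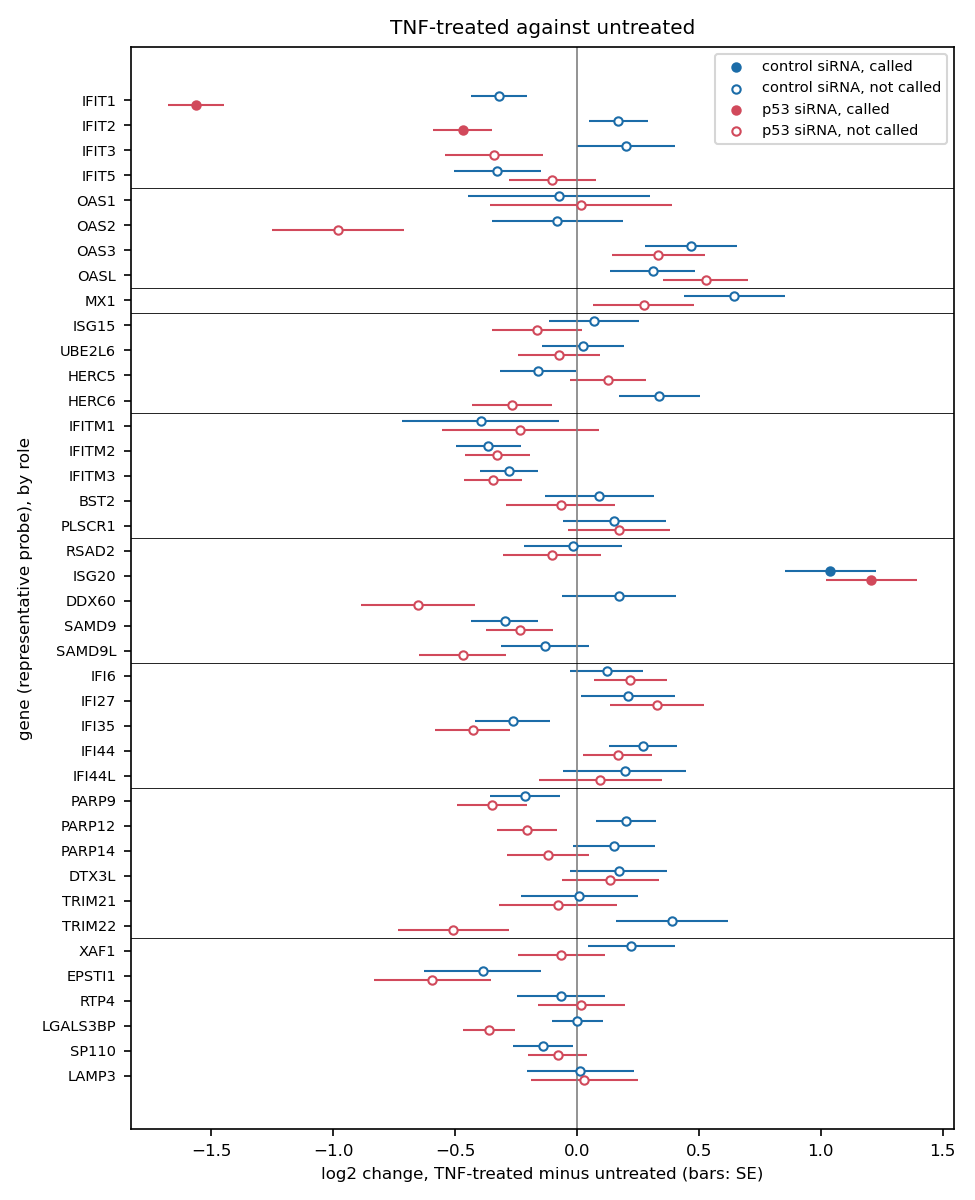
Log2 change with TNF against untreated (x axis, bars give the SE) for the representative probe of each of the 40 tested members (y axis, by role), in control siRNA cells (blue) and p53 siRNA cells (red). Filled points were called at a limma adjusted p under 0.05, and they are ISG20 in both and IFIT1 and IFIT2 in p53 siRNA cells.

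The difference between the TNF responses (p53 siRNA minus control siRNA) was tested directly. IFIT1 was called, at -1.24 ± 0.16 (limma adjusted p = 0.012), as 1 of the 40 lower against 0.088% of all genes. No member was called higher, against 0.016% of all genes. Limma gave 0 of the 40 higher and 8 lower at an unadjusted p under 0.05. By probe the counts were 1 lower of 58, against 0.0693% of all probes, and 0 higher, against 0.013%. TNF changed IFIT1 by -0.32 ± 0.12 in control siRNA cells, which was not called (limma adjusted p = 0.149). The dim IFIT1 probe was undetected on all p53 siRNA arrays and gave no difference to set against this. The call was lost under median scaling (limma adjusted p = 0.14), when the probes of a gene were averaged (-0.67, limma adjusted p = 0.127) and when any of 5 arrays was left out. Without p53 siRNA untreated replicate 3 it held, at -1.17 (limma adjusted p = 0.0171). With no background correction it held at a smaller size, -0.65 (limma adjusted p = 0.0435). The 5 arrays were control untreated replicates 2 and 3, control TNF replicate 3 and p53 siRNA TNF replicates 1 and 2 (limma adjusted p = 0.0511, 0.0534, 0.057, 0.0565 and 0.062). Over the tested members the median difference was -0.10, and -0.23 without p53 siRNA untreated replicate 3. The medians over all genes were -0.002 and -0.01.

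Genes that encode the ligands, receptors and factors of the interferon pathway were taken as a list of 25, of which 15 had a tested probe. The ligand genes IFNB1, IFNA1, IFNA2, IFNK, IFNL1 and IFNL3 were detected on 0 of 12 arrays, IFNE by 1 of its probes on 2 and IFNL2 on 1. TNF was followed by 0 calls among the 15 in either siRNA group. With p53 siRNA, 4 were lower untreated and 3 with TNF, with 0 and 1 higher. All genes gave 16.4% and 14.7% lower and 16.1% and 12.6% higher, and the counts of the list lay within a few genes of these shares. IRF1, an activator of interferon genes, was at -1.20 ± 0.25 and -1.27 ± 0.25 (limma adjusted p = 0.00358 and 0.00293). The receptor chain IFNAR2 was at -0.83 ± 0.12 and -1.16 ± 0.12 (limma adjusted p = 0.00039 and 4.85e-05), with another probe at -0.46, not called, and -0.84. IRF9, which gives the response factor its DNA binding, was at -0.46 ± 0.14 and -0.51 ± 0.14 (limma adjusted p = 0.0253 and 0.017). IFNAR1, the other receptor chain, was at -0.51 ± 0.18 (0.0487) and -0.39 ± 0.18 (0.142) in the same test. IFNLR1, a receptor chain for lambda interferons, was higher with TNF, at 0.46 ± 0.14 (limma adjusted p = 0.0334). The kinases JAK1 and TYK2 were not called.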

How the data were processed

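Total RNA of MDA-MB-231 was measured on 12 Illumina arrays of 1 colour, grouped by the labels' source names. The deposited table holds, per the file headers, a linear intensity and a detection p-value per probe and array. The software was GenomeStudio, per the submitters' processing notes, which name no version. The authors' processed intensity table, with a median of 241.6 in each column and 0.999 or more correlation on the log2 scale with the signals of the same array, was an alternative only. How it was normalised is unknown.

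Intensities were background-corrected from the detection p-values, quantile normalised and put on the log2 scale after an offset of 16 (neqc, limma 3.58.1, R 4.3.3). A probe was kept if its detection p was under 0.05 on 3 arrays or more (23079 of 47322). A mean per group was fitted to all 12 arrays (lmFit, eBayes), with 5 contrasts, 2-sided tests and Benjamini-Hochberg adjustment over all kept probes within each comparison. The scripts were tested on simulated data. Errors beside changes are standard errors from this fit. A gene was named through the platform annotation, which can be old, and took the kept probe with the highest mean. A probe undetected on all 3 arrays of a group has a bound there, "at least N-fold", in which each dim array counts at its own value or at its dimmest detected probe, whichever is higher. The brighter group counts at its mean, with undetected arrays included, and the bound leaves out the spread between arrays. The number of arrays limits the precision. No level of one probe was set against that of another probe.

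The members, the pathway list and the markers were chosen with earlier results of these data known. Named genes were, per comparison, the called members with the 8 largest changes in each direction, those called in the TNF response difference, and genes whose probes disagreed by over 0.5 or by sign, with values per array for the 5 largest changes and all IFIT1 probes. Other members named beyond this rule, and per-array values of ISG20 and LGALS3BP, were chosen after values were seen. Promoters came from RefSeq (GRCh38.p14). No genome build is given for the probes, so no probe positions are printed. The target transcript of the p53 siRNA is not reported here, and depletion was not checked. Alternatives are named in the closing section.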

Additional observations from a re-analysis of the deposited data

Results flagged for a closer look

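The TNF response of IFIT1 differed between the siRNA groups by a test of the difference itself, at -1.24 ± 0.16 on the log2 scale (limma adjusted p = 0.012). It was -1.56 in p53 siRNA cells, where all 3 TNF-treated arrays lay below all 3 untreated ones, and -0.32 in control siRNA cells, where the same held. The other IFIT1 probe was undetected on all p53 siRNA arrays and gave no difference to set against it. The call was lost in 7 of the 22 other settings that tested it. With no background correction the difference was -0.65, and with the authors' processed table it was -0.70 (limma adjusted p = 0.0435 and 0.0283). Its size therefore depended on the processing.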

How the results depend on the processing

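Each comparison was recomputed under 11 other settings and without each array in turn. No called member reversed in any setting. Calls held in every setting that tested them for 25 of 29 members in untreated p53 siRNA cells and 28 of 31 with TNF, for 1 of 1 and 2 of 3 TNF effects in control and p53 siRNA cells, and for 0 of 1 TNF response differences. Under median scaling, TNF raised 2 members in control siRNA cells, p53 siRNA raised 0 untreated, the members' median with TNF was -1.16 and the TNF response difference had 0 members lower. That scaling put the median of all genes at -0.14 untreated and -0.15 with TNF and split the calls of all genes into 793 higher and 2559 lower, against 2011 and 2045, and with TNF into 556 and 2470, against 1582 and 1836. Relative to those shifts the members stayed lower, with 29 and 31 called. With no background correction and with the authors' processed table, TNF raised 2 members in control and lowered 4 in p53 siRNA cells, and the medians with p53 siRNA were -0.68 untreated and -0.69 with TNF under both. TNF raised 2 members in control siRNA cells also with averaged probes, array weights and only the groups compared, and array weights gave 2 lower. In p53 siRNA cells TNF lowered 4 members with probes detected on all 12 arrays or adjustment over genes, 5 with averaged probes, and 1 with no detection filter or only the groups compared. Fitting only the groups compared gave 0 members higher in untreated p53 siRNA cells, and averaged probes gave 0 lower in the TNF response difference. Of all genes, 3.04% to 6.86% were higher with TNF in control and 0.704% to 4.28% lower with TNF in p53 siRNA cells in the settings named, 7.17% were lower in control with array weights, and 6.34% and 9.11% were higher in untreated p53 siRNA cells. Besides IFIT1, IFIT2, ISG20, PARP9, PARP14, TRIM21 and LGALS3BP lost a call in some setting, as given above. The causes were not tested. Same-numbered arrays correlated between -0.05 and 0.15 in their deviations. These values cannot show whether same-numbered arrays share an origin, and the main fit did not pair them. With the replicate number as a block, TNF lowered 1 member in p53 siRNA cells, against 2.52% of all genes. The IFIT1 difference in TNF response then had a limma adjusted p of 0.0291.

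Leaving out 1 array gave 1 to 2 members higher and 0 to 1 lower with TNF in control, and 1 to 2 higher and 1 to 7 lower in p53 siRNA cells, the 7 without p53 siRNA untreated replicate 3. It gave 26 to 29 lower with p53 siRNA untreated, with medians from -1.04 to -0.74, 28 to 32 lower with TNF, and 0 to 1 lower in the TNF response difference. Of all genes, 2.66% to 6.16% were higher and 1.74% to 6.16% lower with TNF in control siRNA cells. In p53 siRNA cells these shares were 1.89% to 5.46% and 1.52% to 5.09%. With p53 siRNA, 13.1% to 18.3% of all genes were lower untreated and 10.9% to 19.1% with TNF. In the TNF response difference 0.032% to 0.12% were lower. The slide as a block was not run, since no slide is given. Low signal limits what can be said of the members: of their 64 probes, 5 were detected on no array of untreated control siRNA cells and 19 on none of p53 siRNA cells given TNF.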

Other observations

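In untreated p53 siRNA cells OAS2, IFITM1 and BST2, picked after their values were seen, varied widely between arrays. OAS2 by its representative probe read 11.28, 10.46 and 9.78 on replicates 1, 2 and 3, where untreated control siRNA cells read 11.27, 11.21 and 11.22, so that replicate 1 lay at the control level. Another OAS2 probe read 7.63, 6.98 and 7.77 on the same 3 arrays, against 9.51, 9.45 and 9.38 in control, and there all 3 lay below. IFITM1 read 9.43, 8.62 and 7.76, against 10.67, 10.81 and 10.61, and BST2 read 13.24, 12.72 and 12.05, against 12.86, 12.79 and 12.82, with 1 array above and 2 below the control arrays.

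The upstream regulator IRF7, which amplifies interferon responses, also depended on its probe. Its representative probe was not called in any comparison, while another was at 0.88 ± 0.15 with TNF in control siRNA cells (limma adjusted p = 0.00393) and at 0.63 ± 0.15 with p53 siRNA in untreated cells (limma adjusted p = 0.0083).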
